A study of Mus musculus with 23 samples.

Results

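The methylated DNA of the mouse olfactory receptor gene clusters was described from the 962 windows of 150 bases, of 210191 in the data, that start inside 4 stretches of GRCm38. These are a small cluster on chromosome 2 (147 windows, starting from 36242701 to 37477951), a large cluster on chromosome 2 (355 windows, from 85136851 to 90395251), a cluster on chromosome 7 (277 windows, from 102430951 to 104950351), and a cluster on chromosome 9 (183 windows, from 37887751 to 40254601). The clusters were chosen with earlier results of these data known. Within them, the windows were taken by position alone from those that the authors' filter on low reads had kept. They were compared with the 194715 other autosomal windows, where possible with those of the same number of CpGs (cytosine followed by guanine, the main site of DNA methylation in mammals).

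Prefrontal cortex was taken from 23 mice of 2 inbred strains in a model of Gulf War illness. The C57BL/6J mice (B6) were 5 controls (145 days of age) and 6 given CORT+DFP (145, 218, or 226 days), and the DBA/2J mice (D2) were 6 controls and 6 given CORT+DFP (147 or 196 days in each). CORT+DFP mice drank corticosterone, a stress hormone, at 20 mg% for 7 days, and then received diisopropyl fluorophosphate (DFP, an irreversible cholinesterase inhibitor that stands in for the nerve agent sarin) at 4.0 mg per kg by intraperitoneal injection, and were given corticosterone again in alternate weeks until the tissue was taken, while controls received plain water and saline. Each library is 1 mouse, both sexes are in every group, and no mouse carried a transgene. The sample names divide the mice into 3 sets. Set 1 held 3 B6 CORT+DFP, 3 D2 control, and 2 D2 CORT+DFP mice, set 2 held 8 B6 mice, and set 3 held 7 D2 mice, so that strain, set, and age were only partly separable. The data hold no expression value, so the labelled tissue was not checked against marker genes.

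Olfactory receptors are G protein-coupled receptors of olfactory sensory neurons, and their genes form the largest gene family of the mouse. They lie in tandem arrays made by repeated duplication, together with many pseudogenes, and most have their coding sequence in a single exon. Each sensory neuron expresses a single receptor allele, the other receptor genes are held in heterochromatin, and brain regions such as the cortex make little or no receptor RNA. Since the arrays differ between inbred strains in sequence and in gene content, the reads of D2 mice are placed on a reference genome made from B6 mice, and a region that is absent or diverged in D2 cannot be told apart from a region that is unmethylated in D2.

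In MBD-seq, fragments of DNA are captured by the MBD2 protein through their methylated CpGs and sequenced, so that a region gives more reads when it holds more methylated CpGs. Levels are given as log2 RPKM (reads scaled to the length of the window and the size of the library, with a small prior count), and a difference of 1 on this scale is a change by a factor of 2. Each mouse had 9776537 to 18428398 reads in all windows, of which 27881 to 63942 (0.262% to 0.350%) fell in the 4 clusters. A cluster window had a median of 41.0 reads in a mouse, as did the other autosomal windows.

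The retained windows lay mostly away from the receptor genes. The 4 clusters hold 583 olfactory receptor genes and pseudogenes of GENCODE M21, of which 463 are annotated as protein coding. Only 37 of the 583 had a window in the gene body, 21 had one in the coding sequence, and 49 had one in the gene body or within 2000 bases upstream. In the large chromosome 2 cluster this was 6 of 287 genes in the body, against 21 of 136 in the chromosome 7 cluster, 8 of 123 in the chromosome 9 cluster, and 2 of 37 in the small chromosome 2 cluster. The clusters as a whole were covered as densely as the other autosomal DNA (79.5 windows per Mb in both). Density was 107 per Mb in the chromosome 7 cluster, 98.0 in the small chromosome 2 cluster, 67.8 in the chromosome 9 cluster, and 67.0 in the large chromosome 2 cluster.

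The start sites that RefSeq gives for receptor genes were almost unmeasured, and the bases around them hold few CpGs. RefSeq gives 388 promoter sequences of olfactory receptor genes in the 4 clusters (GRCm38.p6, 300 bases each, from 250 before the start to the bases just after it). They held a median of 1.00 CpG (the letters CG, which read the same on both strands), and 66.0% held at least 1, against a median of 8 CpGs and 95.4% of the 31903 other promoters, and 94.6% of all promoters. At least 5 CpGs were found in 1.55% of the receptor promoters and in 63.7% of the others. A retained window overlapped only 1 of the 388 sequences, that of Olfr976 on chromosome 9, which with 8 CpGs had the highest number of the 388. That window (chr9:39960901-39961050) did not pass the test between strains (0.10, SE 0.12, adjusted p = 0.623).

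The coding windows that were measured all hold CpGs, since the authors left out windows without CpGs. They cannot show where the CpGs of the unmeasured genes lie. The sequences below are from GENCODE M21 transcripts and, for the upstream bases, from RefSeq, with each CpG in capitals. They are shown because Olfr571 has the only window lying wholly in receptor coding sequence that differed between strains, Olfr982 has the most CpGs among the windows lying wholly in coding sequence, and Olfr545 has the coding window with the highest level. Olfr571 is shown with both its captured coding window and the 250 bases before its RefSeq start, which hold no CpG. Its start in GENCODE M21 is a different one, 8161 bases upstream of the middle of that window. The starts of the 2 annotations were not compared for the other genes.
Olfr571 coding window, chr7:102909301-102909450, minus strand: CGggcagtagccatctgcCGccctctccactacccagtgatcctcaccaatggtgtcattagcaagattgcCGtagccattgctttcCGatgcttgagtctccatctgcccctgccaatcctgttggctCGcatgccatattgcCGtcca
Olfr571 upstream bases, chr7:102909838-102910087, minus strand: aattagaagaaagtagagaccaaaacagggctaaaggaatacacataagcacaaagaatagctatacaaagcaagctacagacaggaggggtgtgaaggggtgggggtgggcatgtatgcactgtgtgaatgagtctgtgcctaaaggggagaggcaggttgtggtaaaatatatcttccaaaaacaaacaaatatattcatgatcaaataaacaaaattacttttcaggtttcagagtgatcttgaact
Olfr982 coding window, chr9:40074901-40075050, plus strand: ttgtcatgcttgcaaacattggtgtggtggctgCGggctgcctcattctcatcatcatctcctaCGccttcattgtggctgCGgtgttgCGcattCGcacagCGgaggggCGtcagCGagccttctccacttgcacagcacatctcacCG
Olfr545 coding window, chr7:102494101-102494250, minus strand: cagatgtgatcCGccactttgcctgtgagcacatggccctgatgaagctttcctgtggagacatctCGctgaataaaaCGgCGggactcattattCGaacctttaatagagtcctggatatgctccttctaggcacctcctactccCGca
The capitals count 6 CpGs in the Olfr571 window, 9 in that of Olfr982, and 6 in that of Olfr545. Of 41 coding windows, 40 lay within 1 transcript exon and could be read, and the number of CpGs in the sequence equalled the number listed in the data in 38, with a difference of 1 in the other 2.

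Between strains, a larger share of the cluster windows was lower in D2 than elsewhere. In limma's test with Benjamini-Hochberg adjustment over all windows, 236 of 962 (24.5%) were lower in D2, against 18.3% of all windows, 19.0% of the other autosomal windows, and 19.4% when these are weighted to the CpG numbers of the clusters. Another 146 (15.2%) were higher in D2, against 16.4% of all windows, 15.8% of the other autosomal windows, and 15.7% when weighted. The median difference over all 962 windows (D2 minus B6) was -0.01, with 0.01 over all windows. It was -0.15 (0.01 over all windows) in the 5 CORT+DFP mice of set 1 alone, which hold both strains. The lower tail had a 10th percentile of -1.20 in the clusters and -0.90 in the other autosomal windows, and 116 windows (12.1%) that passed the test and fell by at least 1 on the log2 scale, against 9.42% after weighting. This tail includes windows that the authors' filter on low reads kept through B6 alone. The filter asked for more than 1 CPM (a count scaled to library size) in at least 2 mice, which is a level of about 2.74, and 51 of the 962 windows (5.30%, against 3.85% of the other autosomal windows) were above it in at least 2 B6 mice but not in 2 D2 mice, while for 0 it was the reverse. For these 51 a low value in D2 was built in. Among the 911 windows above that level in 2 mice of each strain, 20.3% were lower and 16.0% higher in D2 (15.8% and 16.4% of the other autosomal windows so chosen), 7.14% were lower by at least 1 (5.58%), and the 10th percentile was -0.78 (-0.56). Of all 962 windows, those that passed the test and rose by at least 0.5 numbered 45 (4.68%), against 6.30%. The shares are a description and were not tested against each other, since neighbouring windows share fragments and DNA. Lower windows of the large chromosome 2 cluster form 55 runs of adjacent windows, and the 146 higher windows of all clusters form 60 runs, the longest of 9 windows.

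The ranges of all 11 B6 and all 12 D2 mice did not overlap in 139 cluster windows that were lower in D2 (14.4%, against 10.1% of all windows) and in 15 that were higher (1.56%, against 2.87%). The lower count includes windows kept through B6 alone. These separated windows were concentrated in the large chromosome 2 cluster, with 82 of the 139, and 12 of the 15 higher ones lay in the chromosome 7 cluster.

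The calls in each cluster were as follows, where 18.3% of all windows were lower and 16.4% higher in D2. In the large chromosome 2 cluster, 133 of 355 windows (37.5%) were lower and 35 (9.86%) higher in D2, with a median difference of -0.11. The chromosome 9 cluster had 43 of 183 (23.5%) lower and 22 higher, with a median of -0.02. In the chromosome 7 cluster, 49 of 277 (17.7%) were lower and 68 (24.5%) higher, with a median of 0.05. The small chromosome 2 cluster had 11 of 147 (7.48%) lower and 21 (14.3%) higher, with a median of 0.04. The lower counts include windows kept through B6 alone, where a low value in D2 was built in (24, 12, 15, and 0 in the same order). Among windows above the filter level in 2 mice of each strain, 109 of 331 (32.9%) were lower in the large chromosome 2 cluster. In the chromosome 9 cluster 31 of 171 (18.1%) were, and in the chromosome 7 cluster 34 of 262, against 15.8% of the other autosomal windows so chosen. The higher counts did not change. The counts over all windows of each cluster shifted when set replaced age as the covariate (13.5% lower and 8.05% higher over all windows of the data). This gave 108 lower and 15 higher in the large chromosome 2 cluster, 34 and 3 in the chromosome 9 cluster, 36 and 42 in the chromosome 7 cluster, and 7 and 5 in the small chromosome 2 cluster. Without the 5 D2 mice of set 1, the counts were 131 and 31, 39 and 26, 46 and 57, and 11 and 22 in the same order (17.5% and 14.4% over all windows of the data). In the CORT+DFP mice of set 1 alone they were 107 and 6, 38 and 0, 41 and 32, and 9 and 2, so that on chromosome 7 and in the small chromosome 2 cluster the balance turned to the lower side. The balance over all windows turned too, to 13.1% lower and 6.02% higher in that fit, against 18.3% and 16.4% with all 23 mice. The difference between clusters was not tested.

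**Figure D1:**
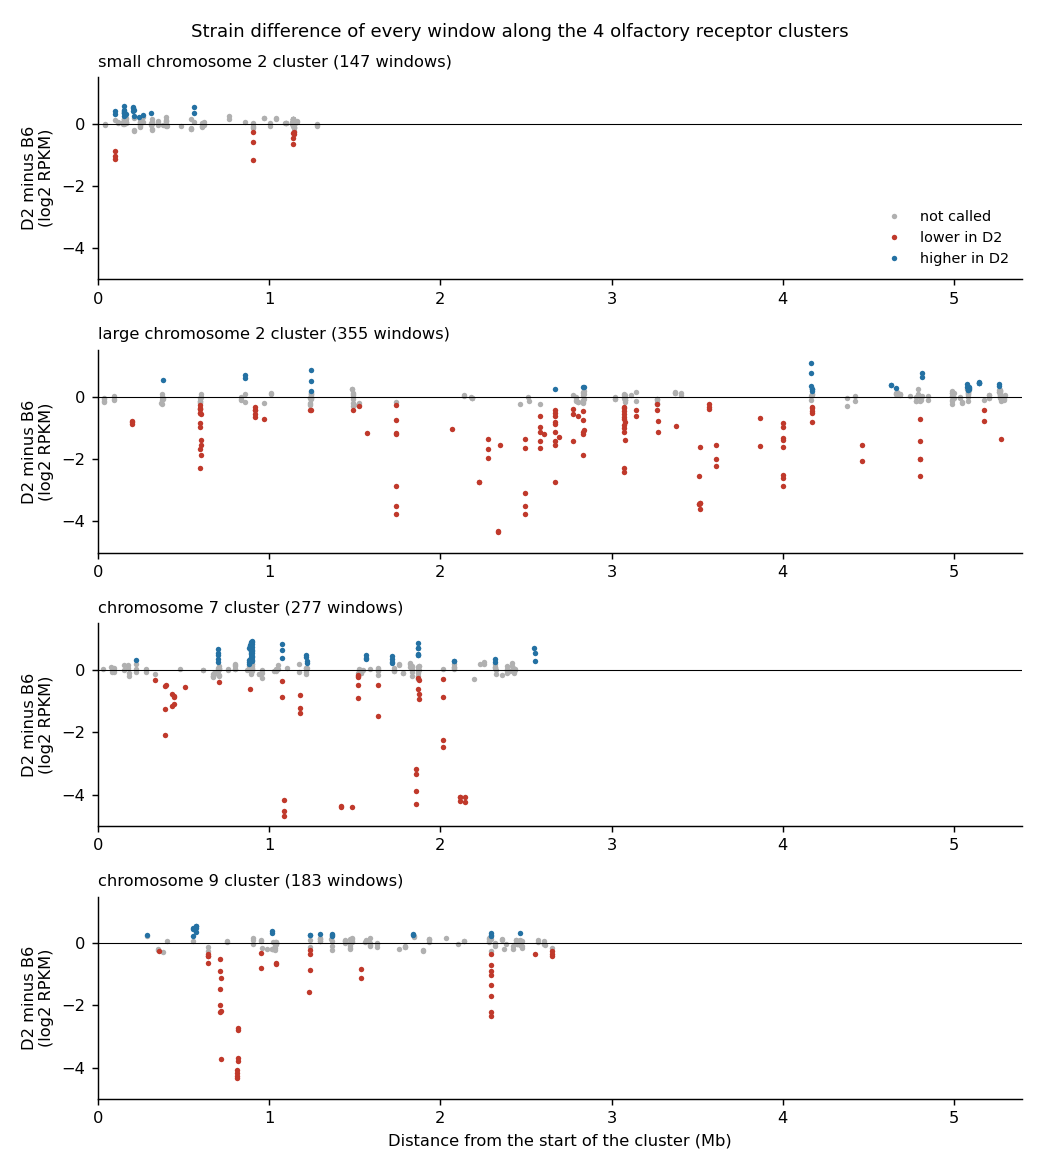
Difference between strains (D2 minus B6, log2 RPKM) of each of the 962 windows against its distance in Mb from the start of its cluster, with the windows called lower in D2 in red, higher in blue, and not called in grey. Differences below -3 stood in all clusters but the small one on chromosome 2, and the calls lie in narrow stacks of adjacent windows.

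Lower windows were spread along the large chromosome 2 cluster but thickest in its middle. From 86.6 to 87.1 Mb 9 of 13 windows were lower, from 87.1 to 87.6 Mb 14 of 21 (median difference -1.56), and from 88.6 to 89.1 Mb all 15 of 15 (median -2.01), with none higher in any of these. At the far end, from 90.1 Mb on, 15 of 58 were higher and 3 lower (median 0.13). In the chromosome 9 cluster 22 of the 43 lower windows stood between 38.1 and 38.6 Mb, and in the chromosome 7 cluster 40 of the 68 higher windows stood between 102.9 and 103.4 Mb. These stretches were picked after their values were seen. Those from 86.6, 87.1, and 88.6 Mb on held 1, 4, and 4 windows with a mean of 3 or fewer reads in D2. The chromosome 9 stretch held 7 such windows. A low value in D2 was built in for these and for any others kept through B6 alone, which were not counted by stretch.

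CpG-rich windows of the clusters were lower in D2 more often than CpG-poor ones. The share lower in D2 was 4.76% of 21 windows with 1 CpG, 17.8% of 146 windows with 5 CpGs, 34.8% of 92 windows with 9 CpGs, and 19 of 38 windows with 12 or more. In the other autosomal windows the share also rose with the number of CpGs, from 14.1% to 16.1%, 25.4%, and 30.9% at the same numbers. These shares include windows kept through B6 alone, which were not counted by CpG number. The share higher in D2 went the other way at the low end, at 28.6% with 1 CpG and 9.59% with 5 CpGs in the clusters and 35.1% and 13.4% elsewhere. Levels themselves were close at a given number of CpGs, as the median over windows of the mean over mice. It was 4.24 in the clusters and 4.20 elsewhere at 1 CpG, 4.18 and 4.27 at 2, and 4.27 and 4.35 at 6. At 11 CpGs it was 4.79 and 4.73, and at 12 or more 4.74 and 4.73. Over all CpG numbers it was 4.37 in the clusters and 4.43 elsewhere after weighting. Only windows that passed the authors' filter on low reads are compared, 1.19% of the 150-base windows of the clusters. The levels of the rest are not known.

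**Figure D2:**
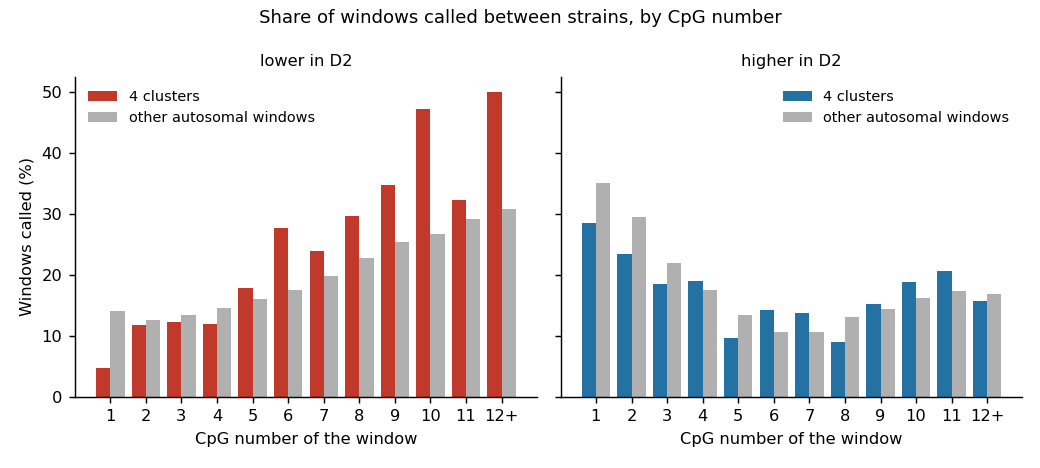
Percentage of windows called lower (left) and higher (right) in D2 by the number of CpGs in the window, for the 4 clusters (coloured bars) and the other autosomal windows (grey bars). At 10 CpGs 47.2% of the cluster windows were lower in D2, against 26.8% elsewhere.

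Receptor coding sequence had few calls, as other coding sequence did. Of the 41 windows in coding sequence of an olfactory receptor gene, 2 (4.88%) were lower in D2 and 0 higher, where 9.20% of windows in other coding sequence of the autosomes were called in either direction, as were 9.09% of 132 windows in receptor coding sequence outside the 4 clusters. In the rest of the receptor gene bodies (introns, untranslated ends, and pseudogenes) 21 of 60 were lower and 4 higher, and within 2000 bases upstream 11 of 36 were lower and 2 higher. In other genes 16 of 133 were lower and 21 higher. Over all windows of the data, 18.3% were lower and 16.4% higher. How many windows of these classes were kept through B6 alone was not counted, so a low value in D2 may be built in for some. The counts were not tested against each other. In no annotated gene lay 692 of the 962 windows, with 186 (26.9%) lower and 119 (17.2%) higher, against 24.0% and 20.1% of the 97775 other autosomal windows in no gene. Coding windows had a median of 5.00 CpGs and windows in no gene 6.00.

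**Figure D3:**
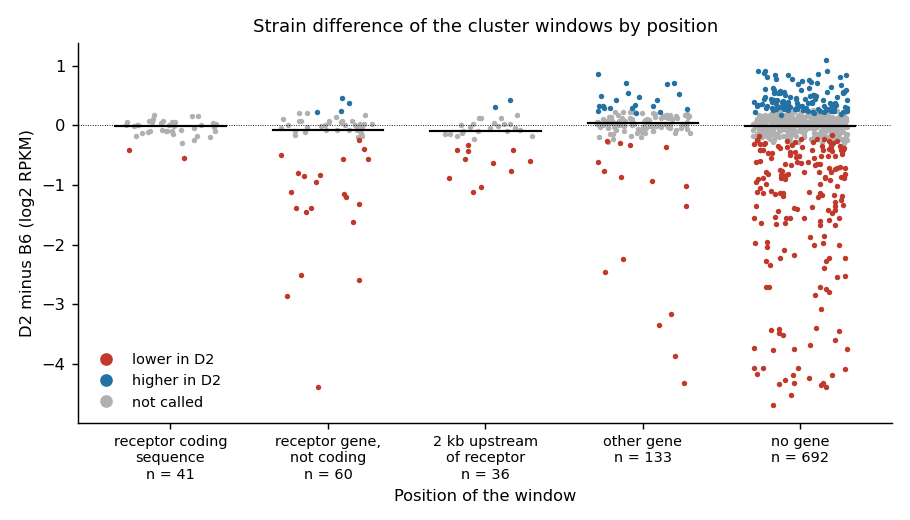
Difference between strains (D2 minus B6, log2 RPKM) of each window by its position, with the median of each class as a black line, points in red called lower, in blue called higher, and in grey not called, and spread sideways for legibility. Of the 41 coding windows 2 were called, at -0.42 and -0.54, while the lower tail of the other classes runs further down.

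The 2 coding windows that passed the test were in Olfr571 and Olfr1055, odorant receptor genes of the chromosome 7 and large chromosome 2 clusters. In the Olfr571 window shown above, the levels of the 5 B6 controls were 4.27, 4.42, 4.43, 4.57, and 4.65, and those of the 6 B6 CORT+DFP mice ran from 3.97 (median 4.41) to 4.99. In D2 the controls ran from 3.31 (median 3.98) to 4.35, and the CORT+DFP mice from 2.83 (median 3.83) to 4.56. The strains overlapped, and the difference was -0.54 (SE 0.12, adjusted p = 2.32e-04), which missed the threshold with set in place of age (-0.57, adjusted p = 0.0823). The Olfr1055 window (chr2:86346601-86346750, 10 CpGs) spans coding sequence and untranslated region. Its levels ran from 4.34 (median 4.65) to 5.14 in B6 and from 3.95 (median 4.27) to 4.60 in D2, which overlap, with a difference of -0.42 (SE 0.11, adjusted p = 9.78e-04).

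The other 39 coding windows did not pass, among them several genes with 3 or 4 adjacent windows. In the pair Olfr544 and Olfr545 all 6 windows had differences between -0.07 and 0.08. The 4 windows of Olfr550 had differences from -0.18 to 0.16, and the 3 of Olfr632 had -0.10, -0.10, and -0.00. The Olfr982 window with 9 CpGs had a difference of -0.15 (adjusted p = 0.364). Receptor genes are close copies, and 9 of the 40 coding windows with a sequence shared a run of at least 50 bases with the transcript of another olfactory receptor gene, including all 6 windows of Olfr544 and Olfr545. Whether reads of such windows were placed on 1 gene only was not measured, so their values may belong to both copies.

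In D2, 29 of the 962 windows (3.01%, against 2.04% of the other autosomal windows after weighting) had a mean of 3 or fewer reads per mouse, and none did in B6. They form 17 runs of adjacent windows, 13 windows in the chromosome 7 cluster, 9 in the large chromosome 2 cluster, and 7 in the chromosome 9 cluster. Their mean in B6 was between 27.8 and 52.4 reads. The retention rule, which asked for reads in some libraries only, let these windows pass through B6 alone, so that a difference was built in for them too, and no test is given. In 3 of the 29 no read fell in any of the 12 D2 mice.

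A pair of those 3 are neighbours in the large chromosome 2 cluster near Olfr1124 (chr2:87437701-87438000). In the first, with 9 CpGs, the 11 B6 mice had 421 reads in all, from 14 to 58 per mouse, and in the second, with 5 CpGs, they had 420, from 17 to 55. Against a floor of 3 reads over the 12 D2 mice, each was at least 172-fold lower in D2. The third lies in Olfr66, an olfactory receptor gene beside the beta-globin genes on chromosome 7 (chr7:103882951-103883100, 16 CpGs, outside the coding sequence and overlapping the Dnajc19-ps pseudogene), with 424 reads in B6, from 20 to 60 per mouse, which makes it at least 173-fold lower in D2.

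Others of the 29 had a few reads in D2. The window chr7:103488601-103488750, with 10 CpGs, had 489 reads in the 11 B6 mice and 2 in the 12 D2 mice, a ratio per library size of 300 (95% exact binomial interval 82.5 to 2482). Its neighbours at 103488751 and 103488901 had 560 against 2 reads and 380 against 1 read. In the chromosome 9 cluster 4 adjacent windows near Olfr147 (chr9:38413051-38413650) had between 373 and 487 reads in B6 and between 3 and 7 in D2. The intervals cover counting error only.

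Among windows at or under 3 reads in D2, those with the highest B6 level were as follows. In the large chromosome 2 cluster it was chr2:88617151-88617300, 12 CpGs, in no gene. Its level was from 4.46 (median 4.70) to 5.14 in B6 and from -0.03 (median 1.15) to 1.89 in D2, and 547 against 34 reads gave a ratio of 19.7 (13.9 to 28.8). In the chromosome 7 cluster it lay in an intron of Trim34a, a member of the tripartite motif family of innate immunity genes (chr7:104257051-104257200, 10 CpGs), at 4.44 (median 4.86) to 5.03 in B6 and 0.47 (median 0.90) to 1.60 in D2, where 576 against 25 reads gave 28.2 (18.9 to 44.0). In the chromosome 9 cluster it was chr9:38417701-38417850, 9 CpGs, 4.00 (median 4.64) to 5.07 in B6 and -0.03 (median 1.15) to 1.41 in D2, where 531 against 27 reads gave 24.1 (16.4 to 36.9). The strains did not overlap in any of these windows, where a low value in D2 was built in by the filter. No window of the small chromosome 2 cluster was at or under 3 reads in D2.

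Of the windows with more than 3 reads in each strain, the most lowered in D2 were mostly neighbours of those just described. These 6 also passed the filter through B6 alone, with the highest D2 mouse at 2.06 to 2.72, so their differences are a description. In the large chromosome 2 cluster they were chr2:86842651-86842800 near Olfr1095, with a difference of -3.49, and chr2:88617301-88617450, with -3.42. In Trim34a they were the windows starting at 104256901 and 104256751, with -3.35 and -3.17. On chromosome 9 they were those starting at 38417551 and 38417401 near Olfr901, with -2.79 and -2.72. The strains did not overlap in any of the 6.

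In the small chromosome 2 cluster the most lowered windows were less extreme. A window in an intron of the Olfr362 gene (chr2:37108051-37108200, 3 CpGs) ran from 3.62 (median 3.93) to 4.64 in B6 and from 1.61 (median 2.99) to 3.39 in D2, without overlap (-1.15, SE 0.15, adjusted p = 7.34e-09). The window chr2:36300001-36300150, 12 CpGs near the pseudogene Olfr335-ps, was one of the 2 most captured of its cluster. Its 5 B6 controls were at 6.42, 6.44, 6.47, 6.53, and 6.56, its B6 CORT+DFP mice at 6.48 (median 6.52) to 6.74, its D2 controls at 4.93 (median 5.38) to 5.91, and its D2 CORT+DFP mice at 5.06 (median 5.46) to 5.72. The difference was -1.12 (SE 0.07, adjusted p = 8.33e-19), and its neighbour at 36299851, the highest of the cluster, had -1.04 (SE 0.08).

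The largest rise was in the large chromosome 2 cluster (chr2:89264551-89264700, 5 CpGs, in no gene), from 3.65 (median 4.18) to 4.50 in B6 and from 5.02 (median 5.23) to 5.49 in D2, without overlap (1.10, SE 0.09, adjusted p = 8.86e-15). The next in that cluster was chr2:86344351-86344500 near Olfr1055 (0.86, SE 0.10, adjusted p = 1.42e-10), whose B6 mice ended at 4.47 and whose D2 mice began at 4.64. In the chromosome 7 cluster a stretch near Olfr596 held 2 long runs of raised windows, of 9 windows (chr7:103293001-103294350, differences 0.30 to 0.91) and of 7 windows (chr7:103299751-103300800, 0.42 to 0.92). Its 2 leading windows, at 103300501 and 103299001, had differences of 0.92 (SE 0.10) and 0.91 (SE 0.10). In the first, B6 mice were between 3.61 and 4.60 and D2 mice between 4.52 and 5.38, with a small overlap.

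On chromosome 9 the most raised windows, at 38171401 and 38171251 near Olfr891, had differences of 0.56 (SE 0.09) and 0.55 (SE 0.09), and in the small chromosome 2 cluster those at 36351451 and 36408001 had 0.58 (SE 0.11) and 0.55 (SE 0.08). The strains overlapped in each of these 4. With set in place of age 3 of them missed the threshold (adjusted p = 0.289 at 36351451, 0.0543 at 36408001, and 0.0533 at 38171251). In the CORT+DFP mice of set 1 alone both chromosome 9 windows lost the call, at 0.29 (adjusted p = 0.402) and 0.17 (adjusted p = 0.652).

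**Figure D4:**
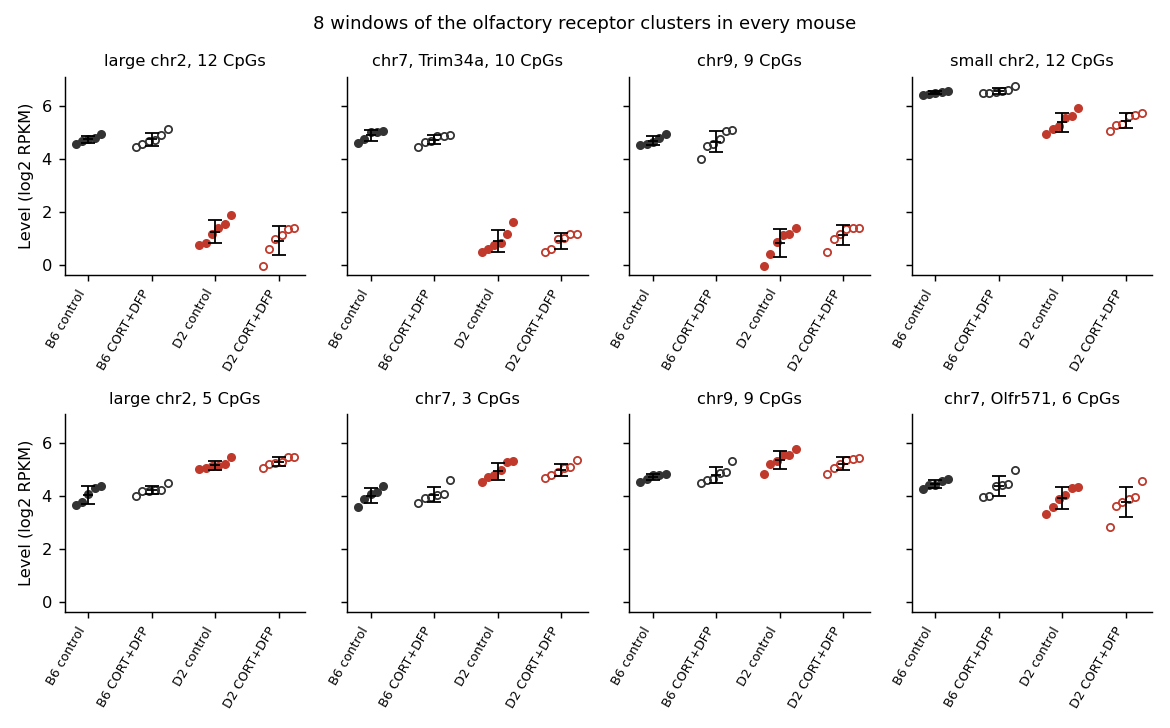
Level (log2 RPKM) of 8 windows in each of the 23 mice by group, with controls as filled and CORT+DFP mice as open circles, B6 in dark grey and D2 in red, sorted by value within a group, and the mean with its SD in black. In the top row the strains are separated in all 4 windows, and in the Olfr571 coding window they overlap. The top-row windows of the large chromosome 2, chromosome 7, and chromosome 9 clusters were kept through B6 alone, so their low values in D2 were built in.

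The windows with the highest mean level in the other 3 clusters had smaller differences, which moved with the fit. In the large chromosome 2 cluster this window (chr2:89268901-89269050, 6 CpGs) ran from 6.24 to 6.67 in B6 and from 6.22 to 7.11 in D2 (0.24, SE 0.07, adjusted p = 0.00839), and the difference was 0.04 (adjusted p = 0.774) without the D2 mice of set 1, 0.64 (adjusted p = 7.90e-05) with set in place of age, and 0.41 (adjusted p = 0.0258) in the CORT+DFP mice of set 1 alone. The call was lost without a variance trend (adjusted p = 0.0628) and with ordinary least squares (adjusted p = 0.0691). In the chromosome 7 cluster it was at 103921801 (-0.18, SE 0.07, adjusted p = 0.0425), a call that was lost when any of 15 of the 23 mice was left out and under 5 other alternatives, and in the chromosome 9 cluster at 38896951 near Olfr928-ps1 (0.07, SE 0.07, adjusted p = 0.542).

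The genes that share the clusters were described as well. The 47 windows in Trim genes of the chromosome 7 cluster had 13 lower (27.7%) and 8 higher (17.0%) in D2, against 18.3% and 16.4% of all windows, with 2 at or under 3 reads in D2, both in Trim34a, and a run of 6 raised windows in Trim5 (chr7:104271451-104272350, differences 0.47 to 0.86). The lower count includes windows of Trim34a kept through B6 alone, where a low value in D2 was built in. No retained window overlapped a beta-globin (Hbb) gene, which lie within the same cluster.

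Receptor genes elsewhere in the genome were set beside those of the clusters. Of 137 windows in olfactory receptor genes or 2000 bases upstream in the 4 clusters, 34 (24.8%) were lower and 6 (4.38%) higher. Of 289 windows in olfactory receptor genes or 2000 bases upstream outside the 4 clusters, 37 (12.8%) were lower and 32 (11.1%) higher, and 1 was at or under 3 reads in D2. The difference between these shares was not tested. Of 540 windows in vomeronasal receptor genes or upstream, the pheromone receptor families that also lie in tandem arrays, 101 (18.7%) were lower, 124 (23.0%) higher, and 37 (6.85%) at or under 3 reads in D2. Beside these stand 18.3% lower and 16.4% higher over all windows of the data. The lower counts include windows kept through B6 alone, where a low value in D2 was built in, and their number in these groups was not counted.

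Genes that work with the receptors were measured in other parts of the genome, where 18.3% of all windows were lower and 16.4% higher. For odorant signal transduction, 14 of 18 genes had a window, and of their 107 windows 15 were lower and 14 higher in D2. Most of these calls were in 2 genes that also act in other neurons, the calmodulin-dependent phosphodiesterase gene Pde1c (10 lower and 9 higher of 27 windows) and the kinase gene Camk2b (4 lower and 5 higher of 18). Adcy3, the adenylyl cyclase of olfactory cilia, had 1 lower of 11 (-0.27, SE 0.10, adjusted p = 0.0384), and Gnal, the olfactory G protein, Cnga4 and Cngb1, channel subunits, and Omp, the olfactory marker protein, had none. For receptor trafficking and choice, 11 of 21 genes had a window, and of 79 windows 0 were lower and 2 higher, both in Ebf3, a transcription factor. For the DNA methylation machinery, 9 of 12 genes had a window, and of 125 windows 2 were lower and 4 higher, in Mbd1, a reader of methylated DNA, and Tet3, a methylcytosine oxidase. None of the windows of these 3 lists passed the test for treatment or interaction.

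The effect of CORT+DFP was asked in each strain, and no window of the 4 clusters passed the test. In limma's test 0 of 962 windows had an adjusted p under 0.05 for treatment in B6, in D2, or for the treatment by strain interaction, and the background was 0% of all windows in each. At an unadjusted p of 0.0001 or less, the threshold of the study's methods, 0 of 962 passed in B6 (0.0109% of all windows did), 0 in D2 (0.0128%), and 0 for the interaction (0.0109%). With ordinary least squares 1 window passed that threshold in B6, and without D2 CORT+DFP replicate 4 there was 1 for the interaction. At an unadjusted p under 0.05 there were 53 (5.51%, against 5.92%) in B6, 58 (6.03%, against 5.33%) in D2, and 72 (7.48%, against 7.15%) for the interaction.

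The 2 windows with the smallest unadjusted p in each of these comparisons are given as a description. In B6 they were chr2:36743401-36743550 near Olfr347 and chr7:103474501-103474650 near Olfr608. In the first the 5 controls were at 3.53, 3.75, 4.06, 4.12, and 4.13 and the 6 CORT+DFP mice at 3.96 (median 4.28) to 4.74, with overlap (0.62, SE 0.17, unadjusted p = 7.67e-04, adjusted p = 0.770), and the second had a difference of 0.64 (SE 0.18, adjusted p = 0.770). In D2 they were chr2:36364201-36364350 near Olfr338 (-0.47, SE 0.13, adjusted p = 0.868) and chr7:104821051-104821200 (-0.53, SE 0.16, adjusted p = 0.883). In that last window the 6 controls were at 4.10 (median 4.30) to 4.83 and the 6 CORT+DFP mice at 3.63 (median 3.80) to 4.10, ranges that meet at 4.10.

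For the interaction they were chr2:89890201-89890350 near Olfr1257 and chr7:102620551-102620700 near Olfr553. In the fit with sex and age, the first differed by 0.55 (SE 0.20) with treatment in B6 and by -0.49 (SE 0.17) in D2. This is an interaction of -1.04 (SE 0.27, unadjusted p = 4.10e-04, adjusted p = 0.637), and the second window had -0.67 (SE 0.19, adjusted p = 0.637). The plain means of controls and CORT+DFP mice lay closer. They were 3.71 and 3.99 in B6 and 4.27 and 3.83 in D2 in the first window. In the second they were 4.58 and 4.72 in B6 and 4.78 and 4.58 in D2. All 4 treatment groups of both windows overlapped.

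Each mouse was also given 1 level per cluster, the median over the windows of its log2 RPKM minus the median of the other autosomal windows with the same number of CpGs. In the large chromosome 2 cluster this level was -0.15 (median 0.03) to 0.10 in the 11 B6 mice and -0.39 (median -0.17) to -0.10 in the 12 D2 mice. In the small chromosome 2 cluster it was 0.00 (median 0.00) to 0.07 in B6 and -0.11 (median 0.12) to 0.18 in D2. On chromosome 7 it was -0.13 (median 0.00) to 0.06 in B6 and -0.04 (median 0.08) to 0.13 in D2, and on chromosome 9 -0.18 (median -0.03) to 0.07 in B6 and -0.38 (median -0.01) to 0.06 in D2. The strains overlapped in every cluster, with the least overlap in the large one on chromosome 2.

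Within D2 the sets had different levels. Over the 4 clusters the level was -0.13 ± 0.09 (SD, n = 5) in the D2 mice of set 1 and 0.02 ± 0.03 (SD, n = 7) in those of set 3, with -0.00 ± 0.05 (SD, n = 11) in B6, and on chromosome 9 it was -0.38 to -0.11 in set 1 and -0.04 to 0.06 in set 3. The 2 CORT+DFP mice of set 1 were the lowest of the D2 mice in the large chromosome 2 cluster (-0.39 and -0.38) and on chromosome 9 (-0.34 and -0.38), below the 3 controls of the same set (-0.20, -0.19, and -0.19, and -0.15, -0.19, and -0.11). In set 3 the 4 CORT+DFP mice were at -0.13 to -0.10 and the 3 controls at -0.19 to -0.10 in the large chromosome 2 cluster, with overlap. Reads in windows were 10341578 to 12298918 in the D2 mice of set 1 and 12240614 to 18428398 in those of set 3, and in receptor genes elsewhere the level was -0.20 to 0.00 in set 1 and 0.00 to 0.06 in set 3. In D2 the set goes with age and with depth, which cannot be separated here, and their part in these levels was not tested. In B6 the controls were at 0.01 ± 0.04 (SD, n = 5) and the CORT+DFP mice at -0.01 ± 0.06 (SD, n = 6) over the 4 clusters.

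**Figure D5:**
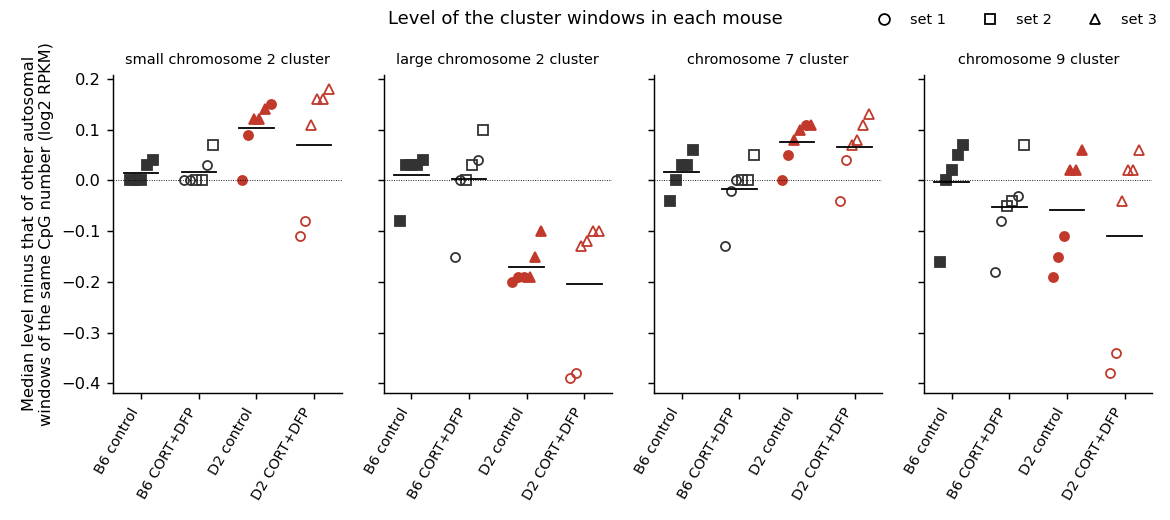
Level of each cluster in each of the 23 mice, as the median over windows of log2 RPKM minus that of other autosomal windows with the same number of CpGs, by group, with circles for set 1, squares for set 2, triangles for set 3, filled for controls and open for CORT+DFP, and the group mean as a line. The 2 D2 CORT+DFP mice of set 1 are the lowest in both chromosome 2 clusters and on chromosome 9.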

How the data were processed

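MBD-seq libraries of the prefrontal cortex of 23 mice were analysed from the deposited matrix. Per the study's methods and the submitters' processing notes, the authors aligned reads to GRCm38 with STAR 2.5.0a, counted fragments in windows of 150 bases with MEDIPS, left out windows without CpGs or with few reads (kept above 1 CPM in at least 2 mice), and wrote log2 RPKM values with edgeR 3.34.1, adding a prior count. These steps were not repeated. The whole reads behind each deposited log2 value were recovered in 100% of values (tolerance 0.05 of a read) and gave the depth. There were 0 unused columns of mice.

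Every window was fitted with limma 3.58.1 (R 4.3.3, variance trend) with terms for treatment and strain, the interaction of both, sex, and age, over all 23 mice, two-sided, with Benjamini-Hochberg adjustment over all 210191 windows, and a call is an adjusted p under 0.05. The strain effect is D2 minus B6 averaged over treatments. Differences given with an SE are values of this fit, adjusted for sex and age, and can depart from those between plain group means. The script was tested on simulated data. The p-values measure the spread between mice. Windows were placed on GENCODE M21 genes, with 2000 bases upstream where stated.

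The clusters and gene lists (receptor genes, Vmn, Trim, and Hbb genes, odorant signal transduction, receptor trafficking and choice, DNA methylation machinery) were chosen with earlier results of these data known. The windows named in each cluster are the one with the highest level among those at or under 3 reads in the other strain, the 2 most lowered and 2 most raised with more than 3 reads in each strain, and the one with the highest mean level, and over all clusters up to 4 called windows in receptor coding sequence and the 2 with the smallest p for each treatment effect and the interaction. Other windows with few reads in D2 and the runs were chosen after their values were seen. Alternatives were log2(RPKM + 1), quantile normalization, ordinary least squares, no variance trend, no age, set in place of age, only windows with more than 3 reads in each strain, the set 1 CORT+DFP mice alone, set 2 only for B6, and leaving out every mouse in turn, and, after seeing the data, voom weights on the recovered reads, leaving out the D2 mice of set 1, and only windows above a level of 2.74 in at least 2 mice of each strain.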

Additional observations from a re-analysis of the deposited data

Results flagged for a closer look

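In a group of 4 to 10 mice, a mouse was singled out when its gap to the nearest other mouse, divided by the range of the group, was above Dixon's 95% value. Of 144 groups of mice and measure, 10 had such a mouse, and chance gives about 1 in 20. Among the levels of the clusters, these were a B6 control in the large chromosome 2 cluster at -0.08, with the other 4 at 0.03 to 0.04, a B6 CORT+DFP mouse over the 4 clusters at -0.13, with the others at 0.00 to 0.07, and a D2 control in the small chromosome 2 cluster at 0.00, with the others at 0.09 to 0.15. Both B6 mice had the fewest reads of their groups (9776537 and 9832180). Their part in these levels was not tested.

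Among single windows (log2 RPKM), in B6 a control at 4.52 stood below the others (4.86 to 4.91) at chr9:38171251, and a CORT+DFP mouse at 4.60 above the others (3.76 to 4.07) at chr7:103300501. In D2 controls, 1 mouse was at 1.61 at chr2:37108051 in Olfr362 (others 2.82 to 3.14), 1 at 2.06 at chr7:104256901 in Trim34a (others 1.14 to 1.43), and 1 at 4.83 at chr7:104821051 (others 4.10 to 4.37). In D2 CORT+DFP, the same mouse was at 4.28 at chr2:36351451 (others 4.70 to 4.95) and at 2.05 at chr7:104256751 (others 1.07 to 1.41). The difference in the treatment effect between strains passed the adjusted threshold at no window named.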

How the results depend on the processing

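The count of windows lower in D2 stayed within 1.5 times of 236 under the alternatives run (183 to 254, and 226 to 246 with 1 mouse left out). The count of windows higher in D2 was 65 with set in place of age and 40 in the set 1 CORT+DFP mice alone (5 mice, no age), against 146 and 131 to 148 with 1 mouse left out. In those 5 mice 20.3% of the cluster windows were lower and 4.16% higher, against 13.1% and 6.02% of all windows. The cause of these changes was not tested. The median difference was -0.15 in the set 1 CORT+DFP mice alone, against -0.01 and -0.02 to 0.01 with 1 mouse left out. With set in place of age 19.2% of the cluster windows were lower and 6.76% higher, against 13.5% and 8.05% of all windows. Voom weights on the recovered reads called 254 lower and 154 higher. Under quantile normalization, which moved the median difference of all windows to 0.08, 230 were lower and 178 higher, with 18.5% higher against 22.1% of all windows. Of windows above the filter level in each strain, 20.1% were lower and 15.9% higher, against 15.1% and 16.7% of all such windows. The counts of cluster windows for treatment and interaction were 0 at the adjusted threshold in every fit run. The difference in level between strains over the 4 clusters was -0.04, also with log2(RPKM + 1) and with windows over 3 reads in each strain, and -0.06 against windows of any CpG number.

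Of 1038 values of named windows under alternatives, 1008 kept their direction and side of the threshold, 28 lost the call, and 2 changed sign, chr9:38896951 at -0.12 under quantile normalization and chr7:103921801 at 0.03 in the set 1 CORT+DFP mice alone. No paired analysis was possible because no number in the labels ties single mice across groups. The sets, each with more than 1 group, entered as a covariate in place of age. Depth was a median of 41.0 reads per window and mouse.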
